A study of Mus musculus with 12 samples.

Results

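Selenbp1 and Selenbp2 encode selenium-binding proteins, and both were read from the liver RNA-Seq values of mice in which the lncRNA mGULL was knocked down. The 2 genes were picked by name, as 2 of the 55385 rows of the TPM table (a measure of transcript level that takes account of length and of the total). They were picked because Selenbp2 was already known to be strongly lower with knockdown and partly returned with rescue in these same mice, so its levels are given as a description, without a test. Livers came from 12 male C57BL/6 mice, 7 weeks old, taken on day 7 after injection of 500000000 active viral particles in total. The 4 mice of Ad-Ctrl (labelled GULL_control) received adenovirus carrying Lac together with the empty pAdV5 virus, the 4 mice of Ad-shmGULL (mGULL_knockdown) received an shRNA against mGULL with the empty virus, and the 4 mice of Ad-shmGULL+hGULL (hGULL_rescue) received the same shRNA with human GULL. Every mouse, controls included, therefore carried adenovirus. The methods name the route of injection in different ways, as retro-orbital and as intravitreal. Levels of mGULL and hGULL were not analysed here, so the RNA values give no check of the knockdown itself.

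The protein SELENBP1 is a methanethiol oxidase, an enzyme that breaks down the sulfur compound methanethiol to hydrogen sulfide, formaldehyde and hydrogen peroxide. Despite the name, neither protein is a selenoprotein, since the coding sequences do not insert selenocysteine. Selenbp2 is a nearly identical gene of the mouse, first known as an acetaminophen-binding protein of liver, and its transcripts are known to be more abundant in male than in female mouse liver and to be lowered by peroxisome proliferators, compounds that act through the nuclear receptor PPARα. These properties set which other genes were looked at.

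Both genes lie on the plus strand of chromosome 3 (GRCm38.p6) and have 12 exons each in the annotated transcripts. Selenbp2 (ENSMUSG00000068877.12) extends from 94693573 to 94704406, and Selenbp1 (ENSMUSG00000068874.13) from 94933083 to 94944758, with 228676 bp between them. The coding sequences are 1416 nt each and differ at 18 positions, an identity of 98.7%. A stretch of exon 5 that holds 4 of these differences is shown because it is a place where a read can tell the 2 transcripts apart. It covers coding bases 390 to 449 and was read from the GRCm39 genome on the plus strand, at chr3:94845295-94845354 for Selenbp1 and chr3:94605379-94605438 for Selenbp2. Capitals mark the bases that differ.
Selenbp1: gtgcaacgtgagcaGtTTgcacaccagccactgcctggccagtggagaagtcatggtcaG
Selenbp2: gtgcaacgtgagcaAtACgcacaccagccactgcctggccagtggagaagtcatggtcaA

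The likeness went beyond the coding part. Over the 1719 aligned bases of the transcripts the identity was 98.5%. A read of 50 nt could have come from either gene at 52.2% of its possible places in the Selenbp2 transcript and at 47.5% in Selenbp1. For 100 nt these shares were 21.3% and 19.3%, and for 150 nt they were 7.01% and 6.30%. At none of these lengths was a stretch shared with the transcripts of any other annotated gene (0 at 50 nt). How reads that match both genes were counted is not given in the sources used here, so part of the reads of either gene may have been left out or assigned to the other, and the level of each is uncertain to that extent.

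The DNA upstream of the genes was also nearly the same. The sequences below are shown because nearly the same letters precede 2 genes whose levels differed. They are RefSeq promoter sequences of GRCm38.p6 on the plus strand, cut before the first annotated transcript start, and cover chr3:94932833-94933022 for Selenbp1 and chr3:94693323-94693555 for Selenbp2. Capitals mark, within the aligned stretch, bases that differ from the other gene or have no partner there. Bases outside it, the first of Selenbp1 and the end of Selenbp2, stay in lower case. Over the 188 aligned bases the identity was 95.2%, with 9 differences.
Selenbp1: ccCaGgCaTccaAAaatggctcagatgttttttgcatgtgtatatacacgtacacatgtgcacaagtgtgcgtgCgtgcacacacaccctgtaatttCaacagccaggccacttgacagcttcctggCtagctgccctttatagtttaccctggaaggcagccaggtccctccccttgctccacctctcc
Selenbp2: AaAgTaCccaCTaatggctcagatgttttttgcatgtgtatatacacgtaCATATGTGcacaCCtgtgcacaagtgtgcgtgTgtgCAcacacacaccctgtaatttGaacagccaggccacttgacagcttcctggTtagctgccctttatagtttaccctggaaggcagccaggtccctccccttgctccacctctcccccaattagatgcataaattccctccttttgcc

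In the full promoter windows, from 250 bases before the RefSeq start, 5 short motifs were searched on both strands. The cAMP response element TGACGTCA, bound by CREB, had 0 matches in both genes and was present in 1.79% of 32851 mouse promoters. Its core TGACG, which overlaps the full element, also had 0 matches in both, against 20.8% of promoters. The STAT motif TTCNNNGAA, found in 8.30% of promoters, and the direct repeat (DR1) bound by PPARα and other nuclear receptors, found in 0.0396%, had 0 matches in either gene. The letters TATAAA, present in 13.6% of promoters, occurred 1 time in each, on the minus strand. No match means only that these letters are not in these windows.

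Selenbp2 was among the more abundant liver transcripts in control mice and far lower in knockdown mice. In Ad-Ctrl it was 605, 766, 730 and 615 TPM in mice 1 to 4. In Ad-shmGULL it was 105, 107, 163 and 290 TPM, and in Ad-shmGULL+hGULL 225, 503, 398 and 303 TPM. All 4 knockdown mice and all 4 rescue mice lay below all 4 control mice, whereas 3 of 4 rescue mice lay above every knockdown mouse and rescue mouse 1 lay below knockdown mouse 4.

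**Figure D1:**
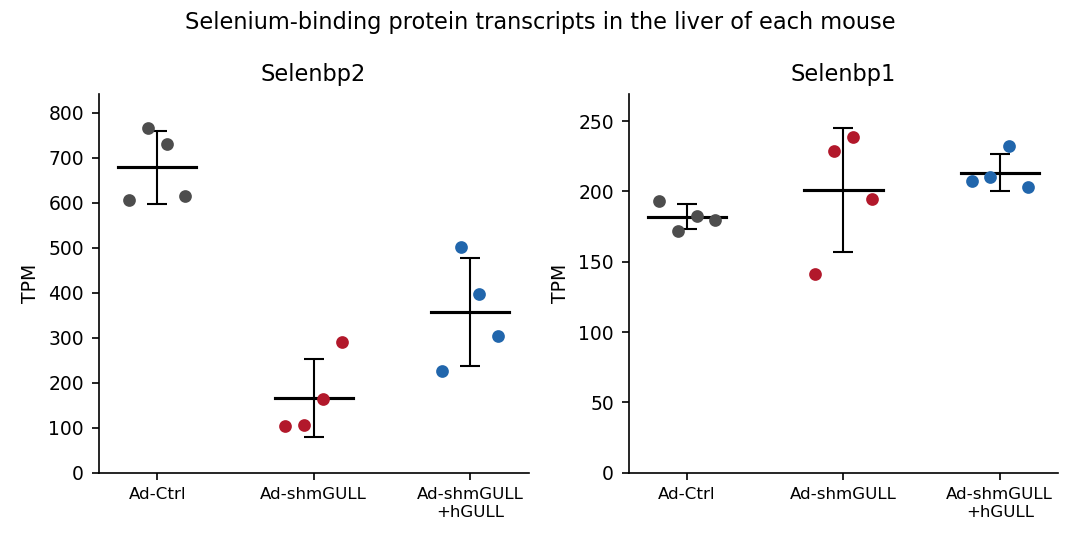
TPM of Selenbp2 (left) and Selenbp1 (right) in each of 12 mouse livers, by group; points are mice 1 to 4 from left to right, thick lines group means and bars the SD. Selenbp2 had group means of 679, 166 and 357 TPM, whereas those of Selenbp1 were 182, 201 and 213 TPM.

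Averaged over mice, the level was 679 TPM with an SD of 81.0 in Ad-Ctrl, 166 with an SD of 86.9 in Ad-shmGULL and 357 with an SD of 120 in Ad-shmGULL+hGULL (n = 4 each). The knockdown mean was 24.5% of the control mean and the rescue mean 52.6% of it, so that 37.3% of the drop in TPM was regained. Among the 16378 tested features, Selenbp2 ranked 161st by mean TPM in Ad-Ctrl, 726th in Ad-shmGULL and 326th in Ad-shmGULL+hGULL. The spread between mice also widened. The coefficient of variation was 11.9% in Ad-Ctrl, 52.3% in Ad-shmGULL and 33.5% in Ad-shmGULL+hGULL.

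On the log2(TPM + 1) scale, Selenbp2 differed by -2.15 (standard error 0.30) between Ad-shmGULL and Ad-Ctrl, the 10th lowest value of 16378. Groups that did not overlap were found for 8.99% of tested features in that comparison, 2.06% in the downward direction, and since Selenbp2 was chosen on this contrast nothing is read from it. Between rescue and knockdown the difference was 1.17 with the same standard error, in a comparison where 6.38% of features had groups apart and Selenbp2 did not. Between rescue and control it was -0.98, the 47th lowest of 16378, and here 22.3% of features had groups apart, mostly upward (21.4%, against 0.855% downward). Leaving out knockdown mouse 4, the one with the most Selenbp2, moved the knockdown difference to -2.46 and the rescue difference to 1.48. Leaving out rescue mouse 2, the highest of its group, brought the rescue difference to 0.98.

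Selenbp1 did not follow its neighbour. In Ad-Ctrl it was 193, 172, 183 and 180 TPM in mice 1 to 4. In Ad-shmGULL it was 141, 229, 239 and 195 TPM, which spans the whole control range on both sides, and in Ad-shmGULL+hGULL 207, 210, 232 and 203 TPM. Knockdown mouse 1 had the lowest Selenbp1 of all 12 mice and knockdown mouse 3 the highest.

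The group means of Selenbp1 were 182 TPM with an SD of 8.93 in Ad-Ctrl, 201 with an SD of 44.1 in Ad-shmGULL and 213 with an SD of 13.0 in Ad-shmGULL+hGULL (n = 4 each). Knockdown minus control was 0.12 on the log2(TPM + 1) scale (standard error 0.14) and rescue minus knockdown 0.11, with overlapping groups in both. Without knockdown mouse 1 the latter was -0.05. All 4 rescue mice lay above all 4 control mice, as did 21.4% of tested features. This difference of 0.23 did not pass the test in limma (adjusted p = 0.304). The median of all tested features was itself shifted by 0.17 in that comparison, which leaves 0.06 for Selenbp1 relative to it.

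These shifts of the whole table touch every value on the log2(TPM + 1) scale. The median tested feature was higher by 0.087 in Ad-shmGULL and by 0.17 in Ad-shmGULL+hGULL than in Ad-Ctrl, and the cause of these shifts was not tested. Relative to the median feature, Selenbp2 was at -2.23 in knockdown minus control, 1.07 in rescue minus knockdown and -1.15 in rescue minus control. Selenbp1 was at 0.03 and 0.02 in the former 2.

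The pair therefore changed in makeup. Selenbp2 held 75.8%, 81.7%, 80.0% and 77.4% of the summed TPM of the pair in control mice 1 to 4. It held 42.5%, 31.8%, 40.6% and 59.8% in knockdown mice and 52.1%, 70.5%, 63.1% and 59.9% in rescue mice. Every control mouse had a larger share of Selenbp2 than every other mouse, and in 3 of 4 knockdown mice Selenbp1 was the more abundant of the pair. Knockdown mouse 4 and rescue mouse 4 had nearly the same share.

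**Figure D2:**
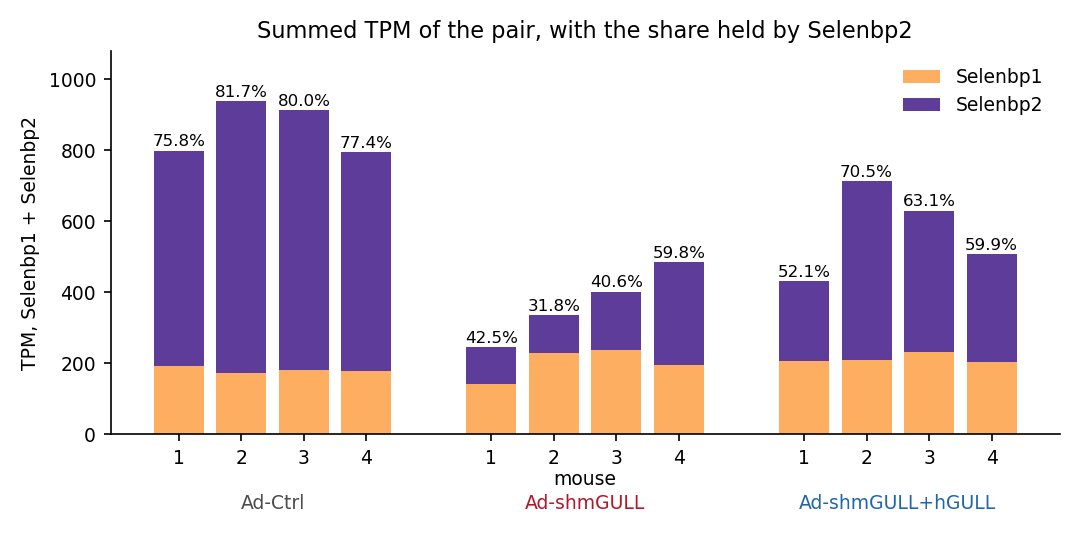
Stacked bars give the TPM of Selenbp1 (orange) and Selenbp2 (purple) in each mouse, and the percentage above a bar is the share of Selenbp2 in the sum. Selenbp1 stays between 141 and 239 TPM in all 12 mice, while the Selenbp2 part runs from 105 to 766 TPM.

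The mean ratio of Selenbp2 to Selenbp1 was 3.75 ± 0.594 (SD, n = 4) in Ad-Ctrl, 0.844 ± 0.445 in Ad-shmGULL and 1.67 ± 0.545 in Ad-shmGULL+hGULL. The summed TPM of the pair, which depends less on how shared reads were divided between the 2 genes, was 861 ± 74.8, 367 ± 101 and 571 ± 125 (SD, n = 4 each). Across all 12 mice the levels of the 2 genes were only weakly related (Pearson r = -0.11, Spearman rho = -0.38, log2(TPM + 1)), and within groups r was 0.20. These points share the 3 groups and the closure of TPM, and r is given as a description.

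In bulk liver, fewer cells of a type and less RNA per cell cannot be told apart. The summed level of the 9 hepatocyte markers in the table (of 10 listed) was 82297 to 119085 TPM in Ad-Ctrl, 84906 to 100061 in Ad-shmGULL and 73408 to 87670 in Ad-shmGULL+hGULL, so the tissue carried the markers of liver throughout. Of these 9 markers, 0 passed an adjusted p under 0.05 in any comparison (limma). Of all features 3.23% passed in knockdown minus control, 0% in rescue minus knockdown and 2.15% in rescue minus control. The median of the 9 was -0.37 in knockdown minus control. In that comparison 2 of the 9 were lower by a log2 change beyond 0.5 with unadjusted P under 0.05 (limma), against 2.3% of all features. For 2 of the 9 all knockdown mice lay below all controls, against 2.06% of all features. Sums for Kupffer cells and macrophages were 360 to 610, 318 to 537 and 378 to 510 TPM in the 3 groups in the same order. Those for T and NK cells were 32 to 110, 37.0 to 67.9 and 58.1 to 80.0, and those for B cells and neutrophils 98.5 to 229, 116 to 266 and 88.4 to 136. The stellate cell sums were 64.9 to 99.3, 79.0 to 111 and 93.9 to 97.4, and the cholangiocyte sums 68.1 to 105, 56.9 to 140 and 83.1 to 118. The sinusoidal endothelial sum was 89.1 to 155, 146 to 191 and 142 to 171, and 1 of its 5 markers, Stab2, was higher after knockdown (log2 change 0.54, adjusted p = 0.048), where 2.44% of all tested features were. With a mouse left out, the call of Stab2 held only without control mouse 1 or knockdown mouse 3 (adjusted p 0.0233 to 0.155 over all alternatives). None of the listed markers in the table was at 0 in every mouse. The part of these levels in the Selenbp2 difference was not tested.

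The genes whose levels followed Selenbp2 most closely over the 12 mice were C9, a component of the terminal complement complex (Pearson r = 0.94), Igf1, the liver-made growth factor that responds to growth hormone (r = 0.93), and Cyp7b1, an oxysterol 7α-hydroxylase (r = 0.92). Lifr, a receptor for leukemia inhibitory factor (r = 0.92), and C8b, another terminal complement component (r = 0.91), came next. In all, 9 tested genes had an r of at least 0.9 with Selenbp2. These genes were chosen for the likeness, so their levels carry no test.

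C9 averaged 620 TPM in Ad-Ctrl, 384 in Ad-shmGULL and 460 in Ad-shmGULL+hGULL. Igf1 averaged 177, 96.5 and 137 TPM, and Cyp7b1 582, 291 and 422 TPM. Lifr averaged 127, 73.4 and 98.0 TPM, and C8b 389, 210 and 269 TPM. None had as deep a difference as Selenbp2, whose knockdown mean was 24.5% of the control mean.

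Part of the likeness lay between mice of the same group. With group means taken out, r with Selenbp2 was 0.82 for C9, 0.68 for Igf1, 0.76 for Cyp7b1, 0.69 for Lifr and 0.79 for C8b. Knockdown mouse 4, the highest of its group for Selenbp2 (290 TPM), was also the highest for C9 (489 TPM), Cyp7b1 (503 TPM), Lifr (103 TPM) and C8b (285 TPM), though not for Igf1 (108 TPM, against 124 TPM in mouse 3). Leaving out any mouse kept r at 0.879 or more for all 5.

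**Figure D3:**
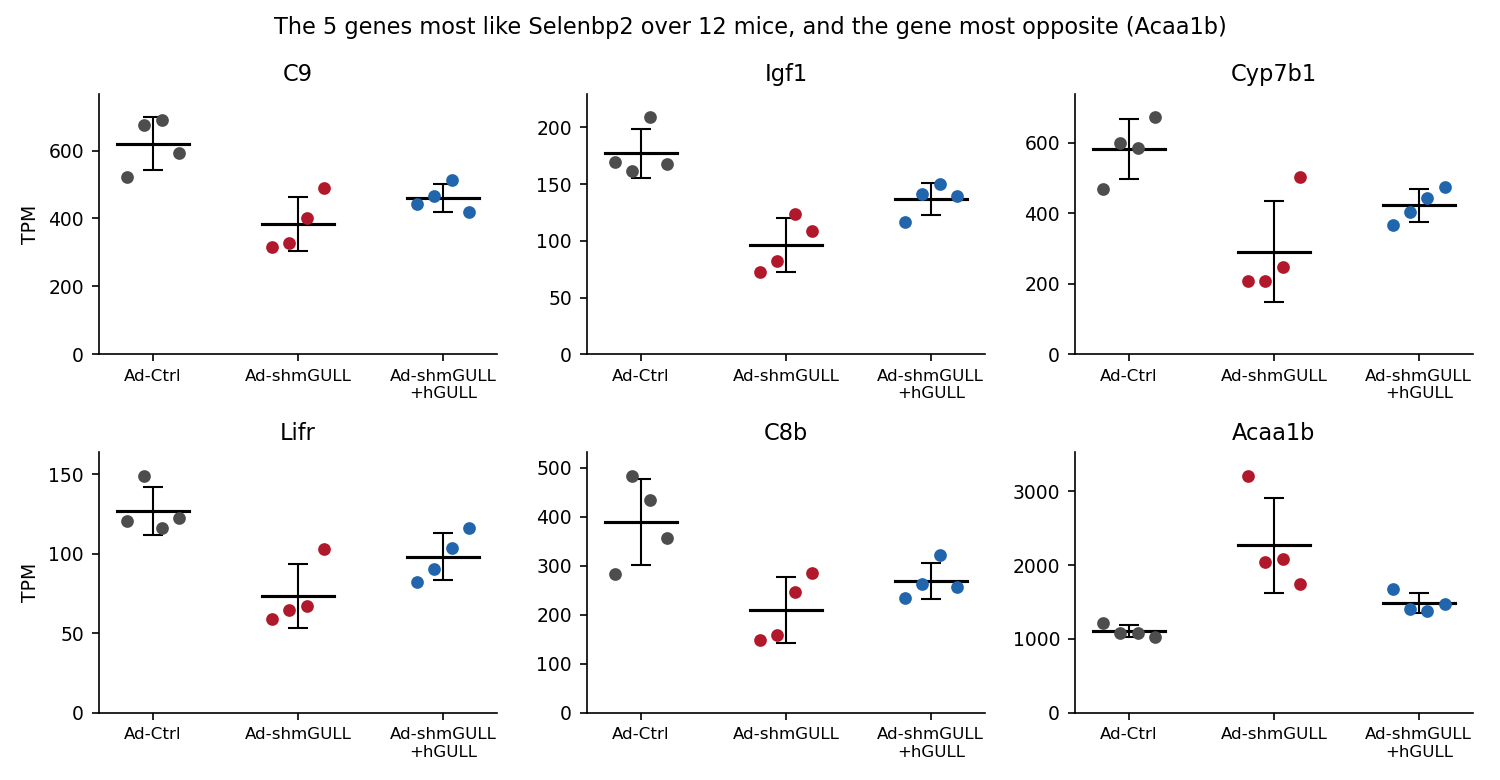
TPM per mouse of the 5 genes with the highest Pearson r with Selenbp2 over 12 mice, and of Acaa1b, the gene with the lowest; points are mice, thick lines group means and bars the SD. Each of the 5 averages less in Ad-shmGULL than in the other 2 groups, and Acaa1b averages 1103, 2270 and 1484 TPM.

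The genes most opposite to Selenbp2 were Acaa1b, a peroxisomal thiolase of fatty acid oxidation (r = -0.94), Slc39a6, a zinc transporter (r = -0.94), and Gfod1 (r = -0.93). Acaa1b was 1218, 1082, 1086 and 1024 TPM in control mice, 3211, 2037, 2083 and 1749 in knockdown mice, and 1683, 1408, 1374 and 1473 in rescue mice. Its 3 groups did not overlap anywhere. The knockdown mouse with the least Selenbp2 had the most Acaa1b, and the one with the most Selenbp2 had the least. After scaling by the median of ratios, r for Slc39a6 was -0.60, that for Acaa1b -0.81 and that for Gfod1 -0.90. They then ranked 1316th, 185th and 19th from the most opposite, so their place at the extreme depended on the scaling.

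Selenbp1 kept other company. The genes most like it were the pseudogenes Krt8-ps (r = 0.96) and Dynlt1-ps1 (r = 0.94), the glutathione S-transferase Gstm6 (r = 0.94), the lncRNA 5530601H04Rik (r = 0.93) and Gm42820 (r = 0.93). Knockdown mouse 1 was the lowest of all 12 mice for each of them, as it was for Selenbp1. Gstm6, for instance, was at 43.2 TPM in that mouse and at 58.5 to 103 TPM in the others. After scaling by the median of ratios these values of r were 0.84 to 0.90.

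The genes of selenium handling had knockdown changes on both sides of the 0.12 of Selenbp1 and above the -2.15 of Selenbp2. Of 20 tested selenoproteins, 0 passed an adjusted p under 0.05 (limma) in knockdown minus control, where 3.23% of all tested features did, and their median change was 0.14, within a range of -0.16 to 0.56. The largest values were those of Gpx3, the secreted glutathione peroxidase (0.56, adjusted p = 0.199), and Selenon, a selenoprotein of the endoplasmic reticulum (0.32, adjusted p = 0.239). At the threshold the study used, a log2 change beyond 0.5 with unadjusted P under 0.05, 1 of the 20 passed, against 7.65% of all features. Selenop, the selenium carrier of plasma and the most abundant of the list, averaged 4908 TPM in control, 4863 in knockdown and 5327 in rescue mice.

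Of the 7 genes that make and insert selenocysteine, 0 passed in knockdown minus control, where 3.23% of all features did. Eefsec, the elongation factor for selenocysteine, was at 0.30 (adjusted p = 0.115). Scly, the lyase that releases selenium from selenocysteine, was higher in rescue than in control mice (0.36, adjusted p = 0.0478, limma), in a comparison where 2.15% of features passed. It averaged 51.5, 60.8 and 66.6 TPM. Its call was lost under median-of-ratios scaling or quantile normalization, without a filter or the trend, and with a replicate block (highest adjusted p of the alternatives 0.325, lowest 0.0245). The call held in 4 of the 12 fits that left out a mouse, those without control mouse 1 or knockdown mouse 1, 2 or 3.

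Among 24 genes of sulfur amino acid and sulfide metabolism, the pathway that methanethiol oxidation feeds, 3 rose with knockdown and 0 fell, in a comparison where 2.44% of all features were higher and 0.794% lower. At the study's threshold the same 3 were higher and Got1, the cytosolic aspartate aminotransferase, was lower (-0.59, adjusted p = 0.098). Of all features 5.35% were higher and 2.3% lower at that threshold. Inmt, a methyltransferase that accepts amines and thioethers, rose from 501 ± 76.2 to 922 ± 133 TPM (SD, n = 4 each; log2 change 0.88, adjusted p = 0.00804). Csad, of taurine synthesis, rose from 309 to 571 TPM (0.87, adjusted p = 0.0171), and Ethe1, a mitochondrial persulfide dioxygenase, from 88.3 to 138 TPM (0.67, adjusted p = 0.0495). The median of the list was 0.06, close to that of all features, and it was -0.04 under the scaling that lowered it most. The call of Inmt held without any one mouse. That of Csad was lost without control mouse 3 or 4 or knockdown mouse 2 (adjusted p 0.0060 to 0.0541). With a mouse left out, that of Ethe1 held only without control mouse 1 (adjusted p 0.0095 to 0.139 over all alternatives).

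In the rescue mice Inmt was still above control at 795 TPM (0.67, adjusted p = 0.0388). This call was lost under median-of-ratios scaling or quantile normalization, and without a filter or the trend. It was also lost without control mouse 2, 3 or 4, knockdown mouse 4 or any 1 of the rescue mice (adjusted p 0.0178 to 0.198 over all alternatives). It was the only call of the sulfur list in that comparison. The genes that dispose of formaldehyde and peroxide, the other products of methanethiol oxidation, gave 0 calls of 11 in any comparison. Of all features 3.23% passed in knockdown minus control, 0% in rescue minus knockdown and 2.15% in rescue minus control. The largest values of the 11 in knockdown minus control were 0.25 for the aldehyde dehydrogenase Aldh2 (adjusted p = 0.101) and 0.17 for the peroxiredoxin Prdx2 (adjusted p = 0.315). In rescue minus knockdown 0 of 16378 features passed with limma at an adjusted p under 0.05 (smallest 0.117, and 1757 features at an unadjusted p under 0.05), so no list had a call there.

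Genes that differ between male and female mouse liver, as Selenbp2 is known to, were looked at next. Of 19 tested male-biased genes, 2 fell with knockdown and 0 rose (10.5%, against 0.794% of all features lower), and the median was -0.46. Cyp7b1, 1 of these 2, had been chosen for its likeness to Selenbp2, which favoured its fall. Neither this count nor that at the study's threshold, which also holds Cyp7b1, is therefore read against the share of all features. Of 15 tested female-biased genes (26 were listed), 6 rose and 0 fell, against 2.44% of all features higher, and the median was 0.54. Cyp2b9 and Slc22a27 averaged 0.80 and 0.78 TPM in Ad-Ctrl and passed the filter, a mean TPM of at least 1, through the other groups. Such a filter favours genes that rose, so the counts and median of this list are not read against all features. At the study's threshold, which 2.3% of all features passed downward and 5.35% upward, the male-biased list had 8 lower and 2 higher, and the female-biased list 8 higher and 0 lower. These lists were put together with results of the same mice known and are described by their counts and medians, with the calls of single members taken from the fit over all features.

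**Figure D4:**
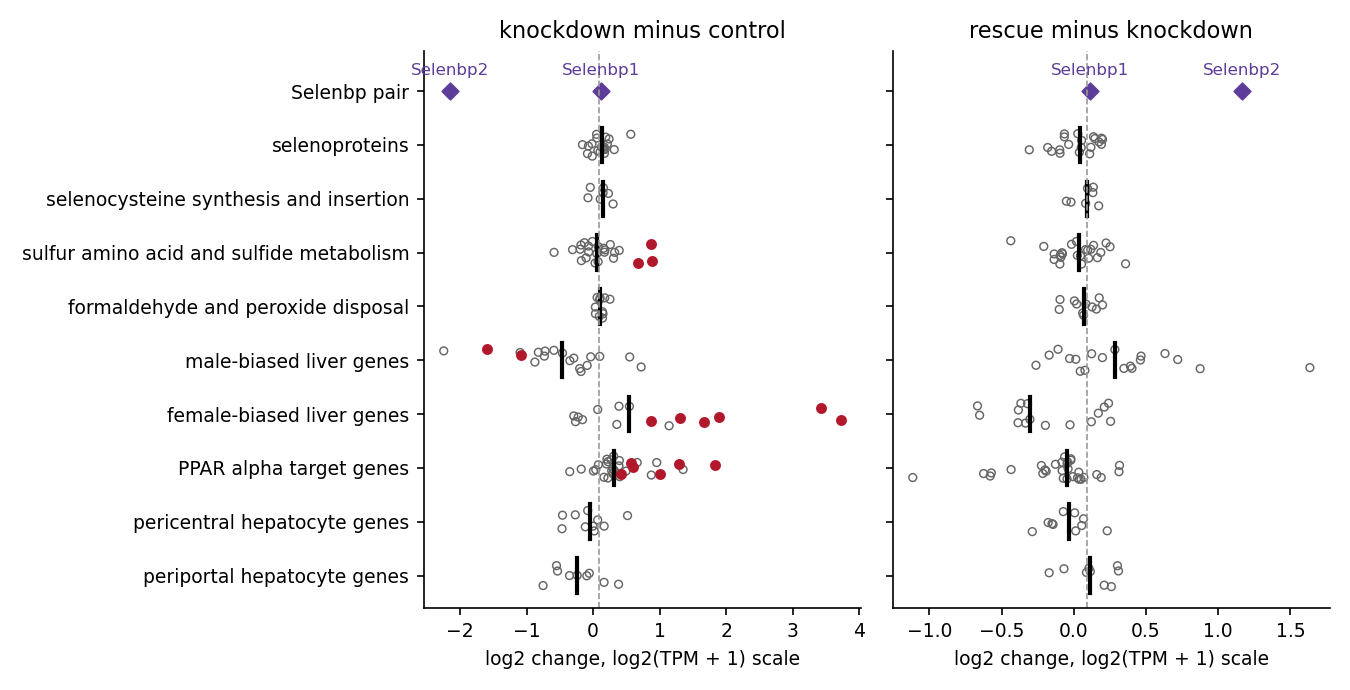
Log2 change of each tested gene of 9 lists (circles) and of the Selenbp pair (diamonds), in knockdown minus control (left) and rescue minus knockdown (right), both on the log2(TPM + 1) scale. Filled circles passed an adjusted p under 0.05, black bars are list medians, and the dashed line is the median of all tested features; the male-biased median is -0.46 on the left and 0.28 on the right, and the female-biased one 0.54 and -0.30.

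The 2 male-biased genes counted as lower were Ugt2b38, a glucuronosyltransferase, and Cyp7b1, which had been chosen for its likeness to Selenbp2 and is given without a test of its own. Ugt2b38 was 7.55, 19.7, 24.1 and 15.7 TPM in control mice, 3.64, 2.69, 3.41 and 10.6 in knockdown mice and 5.86, 8.69, 10.4 and 7.50 in rescue mice (log2 change with knockdown -1.60, adjusted p = 0.0396). Its knockdown mice lay below the controls except mouse 4, the same mouse that was highest for Selenbp2. Cyp7b1 was 469, 600, 585 and 672 TPM in control and 209, 206, 247 and 503 TPM in knockdown mice (-1.09), again with mouse 4 among the controls. With a mouse left out, the call of Ugt2b38 held only without control mouse 1 or knockdown mouse 4 (adjusted p 0.0131 to 0.128 over all alternatives).

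The female-biased genes with the largest change were the cytochrome P450 genes Cyp2b9 and Cyp2a4. Cyp2b9 was 1.80, 0.50, 0.27 and 0.64 TPM in control mice, 36.6, 92.8, 3.65 and 15.1 in knockdown mice and 42.6, 33.9, 4.09 and 13.7 in rescue mice (log2 change with knockdown 3.72). It passed the filter through the groups where it was high, so it is given without a test of its own. Cyp2a4 was 32.3, 6.58, 4.06 and 16.6 TPM in control and 246, 332, 37.1 and 95.7 TPM in knockdown mice (3.43, adjusted p = 0.0360). In both genes every knockdown mouse lay above every control, and the lowest knockdown mouse was mouse 3, not the mouse with the most Selenbp2. Hamp2, a hepcidin gene (1.90, adjusted p = 0.0153), and Acot3, an acyl-CoA thioesterase (1.67, adjusted p = 0.0194), also rose. Reads of Cyp2a4 and other genes of large P450, Ugt and Acot families can be shared with near copies, which leaves their levels uncertain.

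The call of Hamp2 held without any one mouse. Acot3 lost it without control mouse 4 or knockdown mouse 2 (adjusted p 0.0107 to 0.0596 over the alternatives). Cyp2a4 (adjusted p 0.0085 to 0.106) lost it without control mouse 2, 3 or 4, knockdown mouse 1, 2 or 4, or rescue mouse 2 or 4. In rescue minus knockdown the male-biased median was 0.28 and the female-biased median -0.30, with 0 calls in either. The latter was 0.12 without knockdown mouse 2 and 0.13 without rescue mouse 3, and -0.34 to -0.08 without any other mouse. At the study's threshold 2 male-biased genes were higher there, Cyp7b1 and the complement gene C4a, against 2.33% of all features. The choice of Cyp7b1 favoured its passing, so this count is not read against that share. In rescue minus control, where 2.12% of all features passed upward and 0.0244% downward, these medians were -0.31 and 0.71, with 0 calls in either. At the study's threshold 9 female-biased genes were higher there and 0 lower, where 6.84% of all features were higher and 0.641% lower. The filter favoured female-biased genes that rose, so this count is not read against those shares. Of the male-biased genes, Cyp4a12a (0.61) and Cyp4a12b (0.56) were higher at that threshold and Ugt2b38 (-0.88) lower.

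Targets of PPARα, the receptor of peroxisome proliferators, had 6 genes of 30 higher with knockdown and 0 lower (2.44% of all features were higher), and a median of 0.31. Cyp4a14, a fatty acid hydroxylase, rose from 209 to 730 TPM and averaged 306 TPM with rescue (1.83, adjusted p = 0.0451). Acot2, a mitochondrial acyl-CoA thioesterase, rose by 1.29 (adjusted p = 0.0399) and Vnn1, a pantetheinase, by 0.60 (adjusted p = 0.0390). Acaa1b is among the 6, at 1.01, but was chosen as most opposite to Selenbp2 and is given without a test of its own. That choice favoured its rise, so the count of 6 is not read against the share of all features. The list was not uniform, since Cyp4a10, a close relative of Cyp4a14, was at 0.16 (adjusted p = 0.873) and Cpt1a, of mitochondrial fatty acid entry, at -0.35 (adjusted p = 0.0582). At the study's threshold 2 of the 30, Cyp4a14 and Acaa1b, were lower in rescue than in knockdown mice, as were 0.672% of all features. The choice of Acaa1b favoured its passing here too, so this count is not read against that share. In rescue minus control 1 of the 30 was called, against 2.12% of all features higher. It was Hadha, a subunit of the mitochondrial trifunctional protein (0.44, adjusted p = 0.0426). With a mouse left out, its call held only without control mouse 1 or knockdown mouse 1, 2 or 3. The number called was 0 to 5 with a mouse left out and 0 to 7 under the other alternatives. Acot2 (1.07), Vnn1 (0.55) and Crat (0.60) were higher at the study's threshold, as were 6.84% of all features.

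Control mouse 3 had 434 TPM of Cyp4a14, against 122 to 155 TPM in the other controls, and its Selenbp2 was 730 TPM, the next to highest of the controls. With a mouse left out, Cyp4a14 kept its call only without control mouse 3 or knockdown mouse 3 or 4 (adjusted p 0.0315 to 0.129 over all alternatives). Acot2 then kept it only without control mouse 1 or knockdown mouse 3 or 4 (0.0240 to 0.128), and Vnn1 only without knockdown mouse 3 or rescue mouse 1 (0.0219 to 0.114). The calls of Cyp4a14 and Vnn1 were also lost under median-of-ratios scaling, quantile normalization or a replicate block. Without a filter or the trend, those calls and that of Acot2 were lost.

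Position of the hepatocyte in the liver lobule was looked at with 10 pericentral and 9 periportal genes. In knockdown minus control 0 genes of either list passed, where 3.23% of all features did. The medians were -0.04 for the pericentral and -0.24 for the periportal genes. At the study's threshold 3 of the 9 periportal genes were lower and 0 higher, against 2.3% and 5.35% of all features. Of the 10 pericentral genes, 1 was higher and 0 lower. Of the pericentral genes, Tbx3, a transcription factor, was at 0.52 (adjusted p = 0.0562) and Oat, ornithine aminotransferase, at -0.47 (adjusted p = 0.400). Of the periportal genes, Pck1, of gluconeogenesis, was at -0.75 (adjusted p = 0.095) and Hal, histidine ammonia-lyase, at -0.55 (adjusted p = 0.109). In rescue minus control 1 periportal gene passed, Hsd17b13, a lipid droplet protein (0.47, adjusted p = 0.0426), against 2.15% of all features. With a mouse left out, its call held only without control mouse 1 or knockdown mouse 1, 2 or 3 (adjusted p 0.0192 to 0.202 over all alternatives). The number of periportal genes called was 0 to 3 with a mouse left out and 0 to 3 under the other alternatives. In the same comparison 2 periportal genes were lower and 0 higher at the study's threshold, against 0.641% and 6.84% of all features.

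The last comparison was with the chromosomal neighbours. Within 250 kb of either gene the annotation held 37 other genes, of which 21 were tested. Their median was 0.05 in knockdown minus control. Of the 21, 4 had knockdown mice all above and 2 all below the controls, against 6.93% and 2.06% of all features. An adjusted p under 0.05 was passed by 1 of them, downward, against 0.794% of all features lower. It was BC021767, a transcribed pseudogene that ends 26421 bp to the left of Selenbp2 (chr3, 94660589 to 94667152, GRCm38.p6). It was 3.95, 3.57, 2.04 and 3.54 TPM in control mice, 1.01, 1.03, 0.97 and 0.66 in knockdown mice and 1.12, 3.51, 2.25 and 2.04 in rescue mice. All knockdown mice lay below all control mice and also below all rescue mice, and groups apart upward between rescue and knockdown were found for 5.4% of all features.

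**Figure D5:**
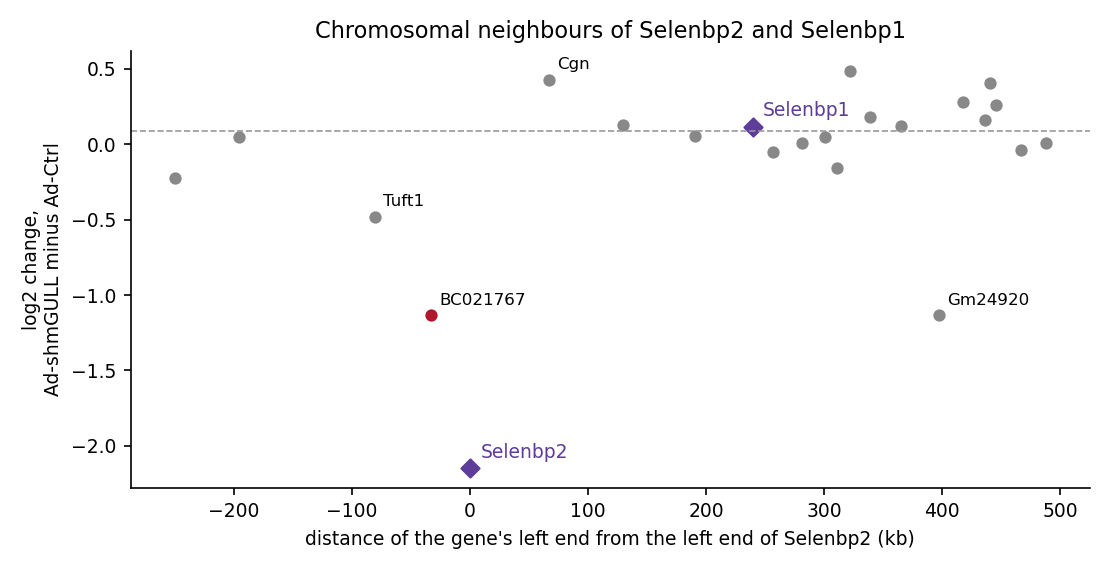
Log2 change in knockdown minus control (log2(TPM + 1) scale) of the 21 tested genes within 250 kb of Selenbp2 or Selenbp1 (circles) and of the pair (diamonds), against the distance of their left ends from that of Selenbp2 in kb. The dashed line is the median of all tested features; BC021767, in red at -1.14, was the only neighbour called, and Gm24920, at -1.13, was not (adjusted p = 0.264).

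BC021767 fell with knockdown by 1.14 on the log2(TPM + 1) scale (limma, adjusted p = 0.0216), and its difference between rescue and knockdown was 0.71 (adjusted p = 0.374). In rescue, mice 1 and 2 were the lowest and highest for BC021767, as they were for Selenbp2. The other groups went the other way at their extremes. Control mouse 1 had the most BC021767 and the least Selenbp2 of its group, and knockdown mouse 4 the least BC021767 and the most Selenbp2. The call was lost without control mouse 2 or 4 or knockdown mouse 2 or 4 (adjusted p 0.0152 to 0.0632 over the alternatives). At 1 to 4 TPM in most mice it was far less abundant than Selenbp2, and no stretch of 50 nt was shared between its annotated transcripts and those of the pair.

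Other genes nearby did not pass. Tuft1, which ends 34701 bp to the left of Selenbp2, was at -0.48 (adjusted p = 0.0820), and Cgn, the nearest tested gene on the right at 55663 bp, was at 0.43 (adjusted p = 0.0735), averaging 11.0 TPM in Ad-Ctrl and 15.2 in Ad-shmGULL. The nearest tested neighbours of Selenbp1 had values close to 0. Psmb4, a proteasome subunit gene 46125 bp to its left, was at 0.05 (adjusted p = 0.837), and Rfx5, a transcription factor gene 5931 bp to its right, at -0.05 (adjusted p = 0.887). The neighbour 4930481B07Rik, an lncRNA, passed the study's threshold in rescue minus control (0.65), where 7.49% of all features did and 6.84% did so upward.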

How the data were processed

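Liver RNA of 12 mice, 4 in each of 3 groups, was measured by strand-specific RNA-Seq, and the sample titles gave the groups. The authors trimmed reads with fastp 0.23.2, checked them with FastQC 0.11.8, aligned them with HISAT2 2.2.1.0 to GRCm38.p6, counted them with featureCounts (Subread 2.0, per the submitters' processing notes) on GENCODE genes and deposited TPM values, which sum to 1000000 in every mouse. Sequencing depth, and the precision it gives, is therefore unknown, and precision was taken from the spread between mice. Values were analysed with limma 3.58.1 in R 4.3.3 on log2(TPM + 1), for the 16378 features with a mean TPM of at least 1, in 1 model of 3 groups with a mean-variance trend and Benjamini-Hochberg adjustment over all tested features. Fold changes on this scale understate those of low genes. The procedure was tested on simulated data. The members and the 16 gene lists were chosen with earlier results of these data known. The named genes were the 5 most like each member and the 3 most opposite to Selenbp2 by Pearson r, up to 4 called genes of a list with the largest knockdown change (or the 2 largest changes where fewer than 2 were called), and called or nearest neighbours within 250 kb. Selenop, Stab2, Got1, Cyp4a10, Cyp4a12a, Cyp4a12b, Cpt1a, Crat, Hadha, Hsd17b13, C4a, Tuft1 and Gm24920 were named after their values were seen. Coding sequences came from the GRCm39 genome with its GENCODE annotation and promoters from RefSeq (GRCm38.p6), where both members matched. Alternatives were other filters, pseudocounts, scalings, models and a replicate block, and leaving out each mouse (for the values of r, chosen after seeing the data). No mouse was left out of the model, and levels of the GULL transcripts were not analysed. Figures were drawn with matplotlib 3.10.9.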

Additional observations from a re-analysis of the deposited data

Results flagged for a closer look

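Among the named genes, 117 groups of 4 mice were checked for a mouse whose gap to its nearest neighbour took up most of the group's range, and 7 groups had one. About 1 group in 20 has one by chance. Knockdown mouse 4 stood apart for 3 genes: Cyp7b1 at 503 TPM (206 to 247 in the other 3), Ugt2b38 at 10.6 TPM (2.69 to 3.64) and the pseudogene BC021767 at 0.663 TPM (0.973 to 1.03). In the first 2 of these it was the highest of its group, as it was for Selenbp2 (290 TPM, against 105 to 163), whereas for BC021767, which lies beside Selenbp2, it was the lowest. Knockdown mouse 1 stood apart for Gm42820 at 0.792 TPM (2.14 to 2.24 in the others), and was also the lowest of its group for Selenbp1. Control mouse 3 had 434 TPM of Cyp4a14 (122 to 155). Rescue mouse 4 had 45.1 TPM of Acot3 (14.1 to 17.1), and rescue mouse 1 had 3.58 TPM of Slc39a6 (3.53 in each of the others).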

How the results depend on the processing

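The differences of Selenbp2 kept their direction under every alternative run. Knockdown minus control was -2.25 to -2.15 (-2.46 to -1.97 with a mouse left out), rescue minus knockdown 1.07 to 1.17 (0.98 to 1.48) and rescue minus control -1.18 to -0.98 (-1.16 to -0.78). Selenbp1 was 0.01 to 0.12 (0.02 to 0.28), 0.01 to 0.11 (-0.05 to 0.20) and 0.03 to 0.23 (0.19 to 0.26, adjusted p 0.0891 to 0.520), with adjusted p 0.0551 to 0.948 for the last under the other alternatives. The counts of called features, and with them the calls of single genes, depended more on the fit. At an adjusted p under 0.05, knockdown minus control gave 529 features, 236 without a filter, 344 without the trend, 33 with only the 2 groups compared, and 167 to 1055 with a mouse left out. Rescue minus knockdown gave 0, and 0 to 2 with a mouse left out. Rescue minus control gave 352 (348 higher), 568 at a mean TPM of at least 5, 9 without a filter, 35 without the trend, 1693 with only the 2 groups, 11 under median-of-ratios scaling, 11 under quantile normalization, and 3 to 1068 with a mouse left out. At the study's threshold the counts were 1253, 492 and 1226 in the same order, 765, 242 and 708 at a mean TPM of at least 5, and 1029 to 1649, 360 to 843 and 864 to 1692 with a mouse left out. For rescue minus control, that count was 723 under median-of-ratios scaling (486 higher, against 1121 of 1226) and 701 under quantile normalization (440 higher). In knockdown minus control, the called genes of a list numbered 0 to 4 for the male-biased, 1 to 6 for the female-biased, 0 to 11 for the PPARα and 0 to 3 for the sulfur list over all alternatives, and 0 to 2 for the neighbours. Of the knockdown calls printed for named genes, only that of Acot3 was kept with just the 2 groups compared, and only those of Inmt, Csad and Hamp2 without a filter. The labels state no pairing by mouse number. Deviations from group means of mice with the same number correlated at -0.24 to 0.15, which cannot show how the numbers were given. With a replicate block rescue minus control gave 71 features. Medians of the sulfur, selenoprotein, formaldehyde and neighbour lists changed sign with the scaling in at least 1 comparison. Depth is unknown, so levels near 1 TPM, such as those of BC021767, have a precision known only from the 4 mice.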
